A study of Mus musculus with 15 samples.

Results

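This section describes 9 genes of immature neurons and of the ganglionic eminence in the striatum of mouse pups: Dcx, Sox11, Sox4, Dlx1, Dlx2, Dlx5, Dlx6, Gsx2 and Sp8. They were chosen by gene symbol, and 9 of 9 were present among the 15569 genes of the deposited table and passed the filter on low values. The pups were of the C57Bl/6J strain and 14 days old, and RNA of the striatum, the forebrain nucleus where cortical input enters the basal ganglia, was sequenced in bulk. Their dams had been exposed to aerosols while pregnant, and the 15 libraries fall into 4 groups: 3 libraries after paraquat, a redox-cycling herbicide, 4 after titanium dioxide (TiO2) nanoparticles, 4 after the mix of both, and 4 controls that the labels call untreated. Dose, litter, dam and sex are absent from the labels, and so is any word on whether each library stands for a pup of its own. The p-values below therefore reflect the variation among these 15 libraries alone, part of which may be technical.

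The ganglionic eminences are the embryonic source of striatal projection neurons and of most forebrain interneurons. There Gsx2 patterns dividing progenitors, and the homeobox factors of the Dlx family drive their progeny into a GABAergic fate. Sox4 and Sox11, the SoxC factors, act as neurons begin to differentiate, and Dcx encodes doublecortin, which binds the microtubules of migrating neurons. After birth much of this programme continues in the subventricular zone, the layer of dividing cells along the ventricle wall that borders the striatum, where Sp8 and Dlx2 mark young neurons on their way to the olfactory bulb.

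Each value is the whole number of reads of a gene after division by its library's size factor, called a normalised read count here. Library depth was 8690925 to 14207513 reads, with paraquat library 3 the deepest. Depth sets the counting error, and whether it bears on the values in other ways was not tested. The labels mention no molecular identifiers. All 9 tested markers of medium spiny neurons, the main striatal neuron type, were present in every library, at a summed level of 68510 to 77580 after paraquat, 74150 to 81590 after TiO2, 67250 to 80250 after the mixture and 78930 to 87680 in control. Xist and Y-linked genes marked 7 libraries as female and 8 as male. Mitochondrial genes took 16.8% to 18.5% of the signal after paraquat, 16.2% to 20.6% after TiO2, 19.1% to 21% after the mixture and 19.7% to 21.8% in control.

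The members lie at 7 places of the genome, given here for GRCm38 (mm10) with GENCODE M21 as annotation, where each is protein coding. Dcx lies on the minus strand of chromosome X at 143855842 to 143933311. Sox11 lies on chromosome 12 at 27334264 to 27342574 and Sox4 on chromosome 13 at 28948919 to 28953713, both on the minus strand. Dlx1 and Dlx2 are convergent neighbours on chromosome 2, at 71528113 to 71533981 on the plus strand and 71543408 to 71546754 on the minus strand. Dlx6 and Dlx5 form the same kind of pair on chromosome 6, at 6863334 to 6868568 on the plus strand and 6877805 to 6882085 on the minus strand. Gsx2 lies on chromosome 5 at 75075601 to 75077893 and Sp8 on chromosome 12 at 118846329 to 118852576, both on the plus strand. RNA genes on the opposite strand overlap Dlx1 (Dlx1as), Dlx6 (Dlx6os1) and Sox4 (Gm26735), and each has values of its own in the table. The use of strand in counting is not given in the sources used here. Whether their reads were kept apart from those of the member is therefore not known.

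Dlx1, Dlx2, Gsx2 and Sp8 were high and low in the same libraries, as described further on, so their promoters are shown side by side. RefSeq (GRCm38.p6) promoter sequences, from 250 bases before to 50 bases after a gene's start, were at hand for 7 of the 9 members. In them 4 short motifs were searched on both strands: TAATTA, the core bound by homeodomain proteins, CAGCTG, an E-box, GGGCGG, the GC box of Sp-family factors, and ACAAAG, a core bound by Sox proteins. Capitals mark matches, written on the gene's strand, so that CCGCCC and CTTTGT are matches read from the other strand.
Dlx1: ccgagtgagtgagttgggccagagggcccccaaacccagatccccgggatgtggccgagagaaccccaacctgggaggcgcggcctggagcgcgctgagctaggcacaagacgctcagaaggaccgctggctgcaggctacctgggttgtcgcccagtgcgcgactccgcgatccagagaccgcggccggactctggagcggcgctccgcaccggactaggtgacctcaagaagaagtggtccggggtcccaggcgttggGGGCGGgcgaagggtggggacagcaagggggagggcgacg
Dlx2: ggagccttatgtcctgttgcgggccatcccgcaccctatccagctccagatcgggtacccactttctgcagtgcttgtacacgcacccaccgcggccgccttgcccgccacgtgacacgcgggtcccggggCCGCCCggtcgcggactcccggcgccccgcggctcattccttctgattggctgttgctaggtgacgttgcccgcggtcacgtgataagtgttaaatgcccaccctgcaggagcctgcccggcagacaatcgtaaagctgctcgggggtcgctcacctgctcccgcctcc
Gsx2: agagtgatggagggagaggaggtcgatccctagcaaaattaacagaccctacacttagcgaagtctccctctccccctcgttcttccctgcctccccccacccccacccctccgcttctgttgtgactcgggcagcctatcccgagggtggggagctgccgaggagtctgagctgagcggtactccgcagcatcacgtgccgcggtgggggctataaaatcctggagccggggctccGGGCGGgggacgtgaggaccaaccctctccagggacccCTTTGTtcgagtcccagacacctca
Sp8: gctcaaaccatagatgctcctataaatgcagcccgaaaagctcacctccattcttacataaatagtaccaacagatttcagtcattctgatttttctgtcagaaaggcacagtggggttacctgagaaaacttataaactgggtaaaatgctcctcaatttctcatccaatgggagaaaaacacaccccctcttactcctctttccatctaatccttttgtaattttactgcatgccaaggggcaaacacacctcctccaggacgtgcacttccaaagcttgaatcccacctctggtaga
The regions are chr2:71529195-71529494 on the plus strand for Dlx1, chr2:71546705-71547004 on the minus strand for Dlx2, chr5:75075351-75075650 on the plus strand for Gsx2 and chr12:118846079-118846378 on the plus strand for Sp8. RefSeq places the start of Dlx1 downstream of the first base that GENCODE annotates, so its window lies inside the gene as given above. The GC box occurred once each in the promoters of Dlx1, Dlx2 and Gsx2, and 35.7% of 32851 mouse promoters of this length hold it. Gsx2 also had 1 Sox core, present in 18.7% of promoters, and none of the 4 motifs occurred in the Sp8 window. GC content was 69.3% for Dlx1, 66.3% for Dlx2, 63% for Gsx2 and 43% for Sp8. Of the other members, Dcx had 1 TAATTA (5.29% of promoters), Sox4 had 1 E-box (16.3%), and Sox11 had 1 E-box and 2 GC boxes. These matches describe the letters in a window and name no binding site.

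Dlx6 and Dcx were the most abundant members by count, and Gsx2 and Sp8 were close to the detection limit. Per kilobase of annotated exon and averaged over the 15 libraries, the level was 372 normalised reads for Dlx6, 172 for Dlx5, 109 for Dcx, 83.0 for Sox4, 62.2 for Dlx2, 48.1 for Sox11, 40.5 for Dlx1, 8.27 for Gsx2 and 4.97 for Sp8. Dlx6 stood above 93.9% of the genes tested on this scale, while Gsx2 stood above 13.6% and Sp8 above 6.92%. The high place of Dlx6 may include reads of the overlapping Dlx6os1.

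How the values fell by library is the main feature of these genes. Normalised read counts of Dlx1 were 381, 283 and 134 in paraquat libraries 1 to 3, 139, 178, 217 and 94.5 in TiO2 libraries 1 to 4, 278, 185, 135 and 329 in mixture libraries 1 to 4, and 300.4, 85.7, 237 and 298 in control libraries 1 to 4. Paraquat, the mixture and control thus each held both high and low libraries, and the groups overlapped. Counts of Dlx2, its neighbour, were 297, 229 and 152 after paraquat, 139, 159, 178 and 93.5 after TiO2, 209.9, 148, 152 and 239 after the mixture, and 215, 66.0, 169 and 216 in control. For both genes paraquat 1 was the highest library and control 2 the lowest.

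**Figure D1:**
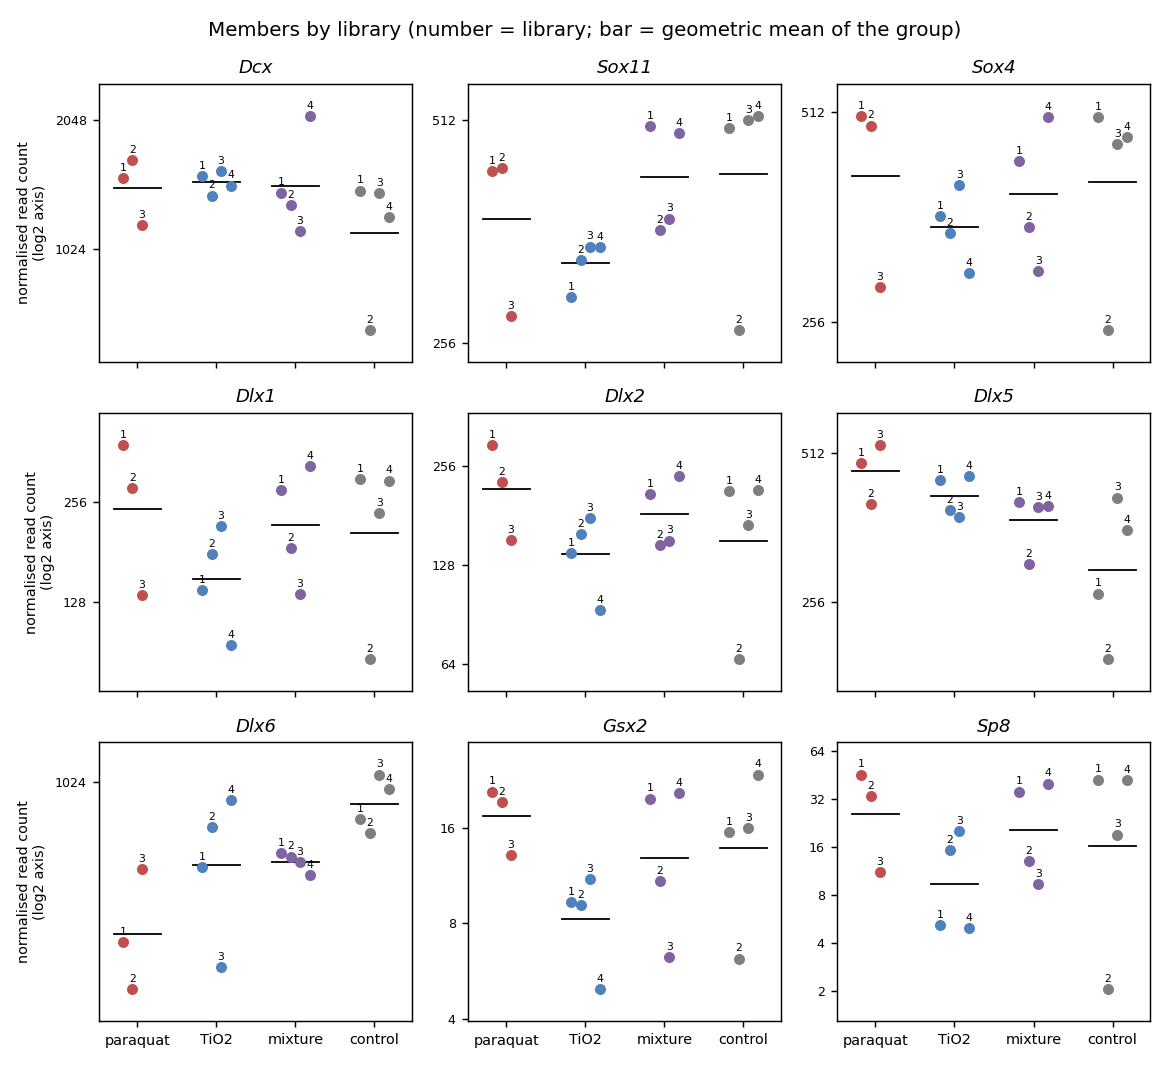
Normalised read counts of the 9 members (y axis, log2 scale, a range of its own for each gene) in each of the 15 libraries, by group (x axis), with the library number beside each point and a bar at the geometric mean of the group. Control library 2 is the lowest of all libraries for Dcx, Sox11, Sox4, Dlx1, Dlx2, Dlx5 and Sp8, and the paraquat and mixture libraries of Dlx6 lie below all 4 controls.

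Gsx2, the progenitor factor, had counts of 20.8, 19.3 and 13.2 after paraquat, 9.34, 9.15, 11.04 and 4.97 after TiO2, 19.8, 10.8, 6.24 and 20.6 after the mixture, and 15.5, 6.19, 16.0 and 23.6 in control. Sp8, a zinc finger factor of interneuron precursors, had counts of 45.7, 33.5 and 11.2 after paraquat, 5.19, 15.2, 20.1 and 4.97 after TiO2, 35.6, 13.0, 9.36 and 40.1 after the mixture, and 42.5, 2.06, 19.2 and 42.3 in control. The same libraries were high and low for both, and the lowest value of Sp8, in control 2, is 2 reads, under a floor of 3 reads.

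The SoxC factors followed the same libraries over a narrower range. Sox4 had counts of 505, 489 and 288 after paraquat, 363, 344, 402 and 301 after TiO2, 435, 350.4, 303 and 503 after the mixture, and 502, 249.7, 461 and 471 in control. Sox11 had counts of 437, 440.4 and 278 after paraquat, 295, 331, 345 and 345 after TiO2, 503, 363, 377 and 492 after the mixture, and 499, 266, 512 and 519 in control. For Sox11, 3 of the 4 controls lay above all 4 TiO2 libraries, and control 2 lay below them.

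Dcx counts were 1495, 1650 and 1165 after paraquat, 1513, 1363, 1559 and 1438 after TiO2, 1386, 1293, 1126 and 2097 after the mixture, and 1400, 660.5, 1381 and 1215 in control. Control 2 was far below the other libraries for this gene, and mixture 4 far above.

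Most of this spread lay within the groups. The standard deviation within groups, on the log2(value + 1) scale, was 1.26 for Sp8, 0.685 for Dlx1, 0.616 for Gsx2, 0.543 for Dlx2, 0.367 for Sox4, 0.355 for Dcx, 0.325 for Sox11, 0.294 for Dlx5 and 0.134 for Dlx6, against a median of 0.177 over all genes tested. That of Sp8 was larger than in 99.9% of the genes tested, that of Dlx1 than in 99.1%, that of Gsx2 than in 98.4% and that of Dlx2 than in 97.3%. Counting error alone would give about 0.303 for Sp8, 0.0974 for Dlx1, 0.386 for Gsx2 and 0.108 for Dlx2, so for Gsx2 a good part of the spread is of the size that counting gives. Differences between the 4 groups held 16.2% of the variance of Dlx1, 17.3% of that of Sp8 and 8.01% of that of Sox4, against a median of 30.5% over all genes tested. For Dlx5 and Dlx6 the share was 47.9% and 53.0%.

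Over the 15 libraries Dlx1 and Sp8 had a Pearson r of 0.97 and a Spearman rho of 0.964 on the log2 scale (permutation p = 1e-05 each, the smallest that 100000 resamples can give, adjusted p = 0.000147 and 0.000203). Dlx1 and Dlx2 had r = 0.947 and rho = 0.939 (permutation p = 1e-05 each, adjusted p = 0.000147 and 0.000203), and r was 0.934 without TiO2 4 and control 2, the libraries farthest from the median. Among the 15 pairs of Sox4, Sox11, Dlx1, Dlx2, Gsx2 and Sp8, r ranged from 0.73 to 0.97, and from 0.77 to 0.968 after the group means were removed. All 15 passed an adjusted p of 0.05 over the 81 relations computed. These pairs share library, depth and scaling, and the 81 relations are not independent of each other.

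Dcx went with these genes through its extreme libraries in part, and Dlx5 and Dlx6 did not follow them. The r of Dcx with Dlx1 was 0.622 (rho = 0.536, permutation p = 0.00853 and 0.0427, adjusted p = 0.0216 and 0.112) and 0.304 without control 2 and mixture 4, against 0.824 within groups. With Sox4, r of Dcx was 0.699 (rho = 0.639, permutation p = 0.00115 and 0.0127, adjusted p = 0.00423 and 0.0396), 0.497 without those libraries and 0.91 within groups. The r of Dlx5 with Dlx1 was 0.18 (rho = −0.0321, permutation p = 0.532 and 0.913, adjusted p = 0.629 and 0.984), and that of Dlx6 with Dlx1 was −0.289 (rho = −0.186, permutation p = 0.297 and 0.51, adjusted p = 0.491 and 0.794). Within the pair on chromosome 6, Dlx5 and Dlx6 had r = −0.228 (rho = −0.239, permutation p = 0.417 and 0.392, adjusted p = 0.578 and 0.676), with −0.093 without control 1 and control 2 and 0.505 after the group means were removed. The sign over all 15 libraries thus differed from that within groups, though r over all 15 did not pass. The pair on chromosome 2 had 0.968 within groups.

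**Figure D2:**
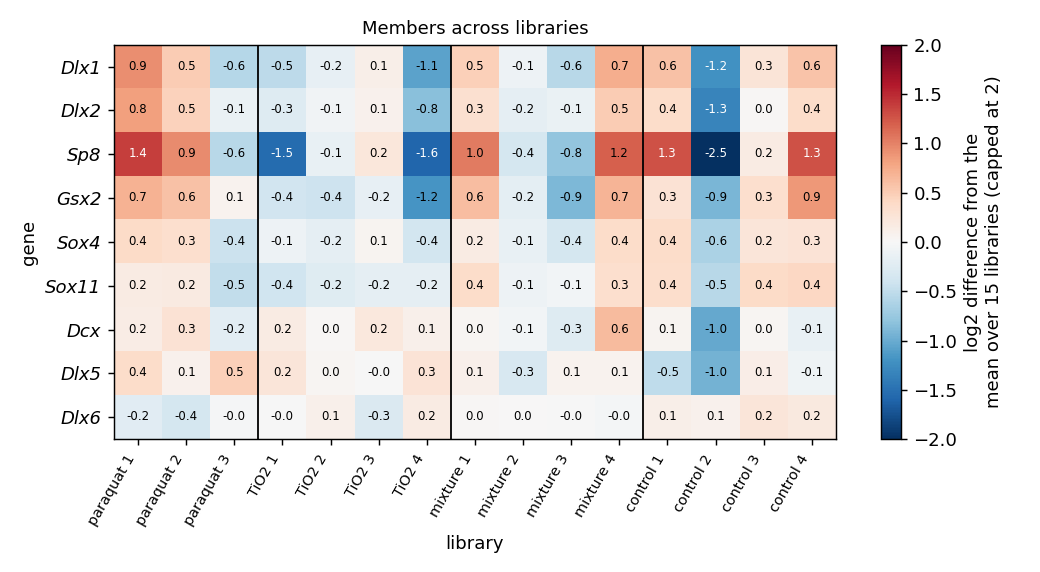
Log2(normalised read count + 1) of each member (rows) in each library (columns, by group), as the difference from the gene's mean over the 15 libraries, with the value printed and colour from blue (lower) to red (higher), capped at 2. The upper 6 genes lie above their means in paraquat 1 and 2, mixture 1 and 4 and control 1, 3 and 4. They lie below them in control 2, TiO2 1, 2 and 4 and mixture 2 and 3, with Sox11 at −0.18 in TiO2 4 and −0.05 in mixture 3. Dlx5 shares the low value in control 2 (−0.95) but lies above its mean in TiO2 4 (0.28). Dlx6 lies above its mean in both (0.08 and 0.17).

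The mean level of a list of genes of neural stem cells and dividing progenitors moved with the same libraries, though not every gene on it did. Nes was 86.26 to 90.31 after paraquat and 104.6 to 129.8 in control, and Fabp7 343.4 to 386.5 and 411.8 to 579.8. Both genes were thus low in paraquat 1, the highest library for Dlx1. The mean log2 difference of a list of 15 such genes, among them the proliferation gene Mki67 and the progenitor genes Egfr and Nes, was −0.068 to 0.072 after paraquat, −0.077 to 0.029 after TiO2, −0.089 to 0.148 after the mixture and −0.188 to 0.108 in control, with control 2 the lowest and mixture 4 the highest. Its r with Dlx1 was 0.892 (rho = 0.918, permutation p = 2e-05 and 3e-05, adjusted p = 0.000147 and 0.00027), and 0.843 without TiO2 4 and control 2. Markers of ependyma, the ciliated lining of the ventricle, also ran with Dlx1 (r = 0.73, rho = 0.696, permutation p = 0.0022 and 0.00522, adjusted p = 0.00735 and 0.0207), though r was 0.467 without those libraries, so that relation rests on them in part. The 4 ependymal markers in the table summed to 77.0 to 169.7 after paraquat, 42.8 to 80.9 after TiO2, 88.1 to 124 after the mixture and 47.5 to 117 in control, and Rsph1, the fifth on the list, is not in the table. None of the 4 was at 0 in any library. Markers of cortical glutamatergic neurons did not run with Dlx1 (r = 0.142, rho = 0, permutation p = 0.612 and 1, adjusted p = 0.698 and 1), nor did those of medium spiny neurons (r = −0.27, rho = −0.0429, permutation p = 0.331 and 0.884, adjusted p = 0.526 and 0.984). In bulk RNA, fewer cells of a type and less RNA per cell cannot be told apart, and the part of the ventricle wall in these values was not tested.

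The genes whose pattern over the 15 libraries was most like that of each member are given as a description, with no test. The nearest to Dlx1 were Cdca7 (r = 0.929), Sfrp1 (0.921) and Igfbpl1 (0.916). The nearest to Sox4 were Sfrp1 (0.941), Mex3a (0.92) and Igfbpl1 (0.92). Among the nearest to Gsx2 were Mcm6 (0.895), a subunit of the replication helicase, and Celsr1 (0.865), and among those to Sp8 were Grid2ip (0.908) and Cdca7 (0.887). Dlx2 was nearest to the cell cycle kinase gene Cdk6 (0.928), the axonemal dynein gene Dnah6 (0.913) and Armc2 (0.905). Other genes headed the remaining lists: Gm44644 (0.938), Gas1 (0.891) and Rbm12b1 (0.885) for Sox11, Setbp1 (0.941), Alg10b (0.91) and Mtmr4 (0.888) for Dcx, Gpr12 (0.906), Proser1 (0.903) and Pianp (0.899) for Dlx5, and 5730522E02Rik (0.931), Tsn (0.916) and Casd1 (0.909) for Dlx6.

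**Figure D3:**
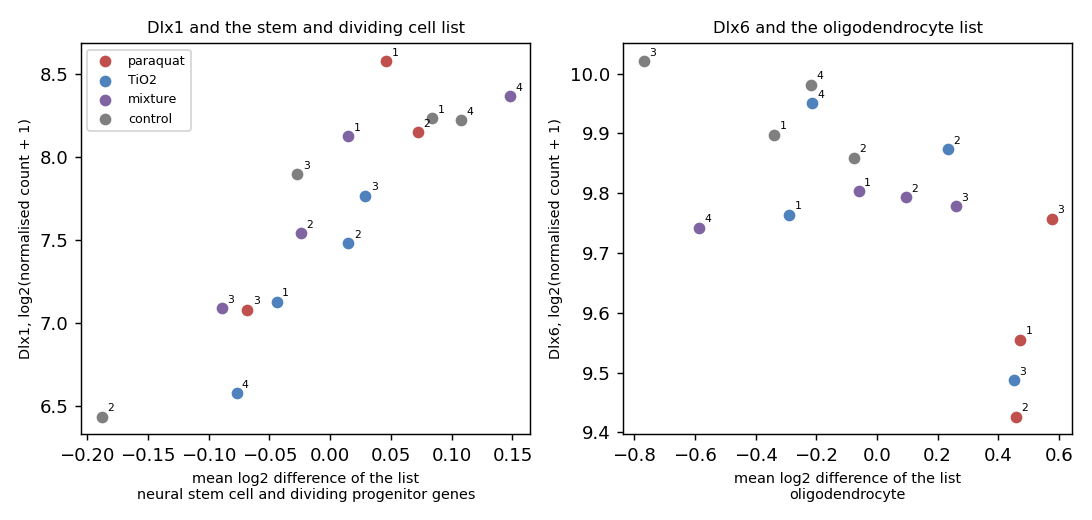
Left, log2(normalised count + 1) of Dlx1 (y axis) against the mean log2 difference of 15 genes of neural stem cells and dividing progenitors (x axis). Right, the same for Dlx6 against 6 oligodendrocyte markers. Each point is a library, coloured by group and numbered. Dlx1 climbs with the list across all 4 groups (r = 0.892). Dlx6 tends to be lower where oligodendrocyte markers are higher (r = −0.682, and −0.326 within groups). Paraquat 3, with the highest marker level (0.578), has Dlx6 near its mean (−0.02 on the log2 scale).

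The first comparison asks what paraquat changed among these genes. The pair on chromosome 6 moved in opposite directions: Dlx5 was higher and Dlx6 lower than in control. Dlx5 counts were 488, 403 and 531 after paraquat, against 266, 196, 416 and 358 in control. The groups overlapped only between paraquat 2 and control 3. The log2 fold change of Dlx5 was 0.66 ± 0.20 (SE; adjusted p = 0.0424 by limma, means 474 ± 65.1 and 309 ± 97.3, SD, n = 3 and 4). Dlx6 counts were 751, 687 and 865 after paraquat, against 953, 928, 1038 and 1010 in control. Every paraquat library lay below every control, and the log2 fold change was −0.36 ± 0.10 (adjusted p = 0.0203, means 768 ± 89.9 and 982 ± 50.7). Thus 2 of 9 members passed the test, 1 in each direction, where 10.4% of all genes did (6.34% higher and 4.06% lower). Groups did not overlap for 1 of 9 members, Dlx6, and for 21.2% of all genes.

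The call of Dlx5 ended without control 1 (adjusted p = 0.104), paraquat 1 (0.135) or paraquat 3 (0.145), in a fit of only the groups compared (0.146), with a term for sex (0.0636) and with a trend on GC content removed from each library (0.214; range over the alternatives 0.00261 to 0.214). Its log2 fold change in these fits was 0.51 with the GC trend removed, 0.58 without paraquat 3, 0.61 without control 1, 0.64 without paraquat 1 and 0.66 in the other 2, against 0.66. The call of Dlx6 ended without paraquat 1 (0.074) or paraquat 2 (0.088; range 0.0119 to 0.088). Oligodendrocyte markers ran opposite to Dlx6 over the 15 libraries, less so within groups. Of these markers 6 of 6 were in the table. They summed to 82760 to 95960 after paraquat, 51710 to 81390 after TiO2, 44800 to 77880 after the mixture and 37550 to 56220 in control. Their level had r = −0.682 with Dlx6 (rho = −0.621, permutation p = 0.00495 and 0.0158, adjusted p = 0.0149 and 0.0441). That r was −0.586 without TiO2 3 and paraquat 2, and −0.326 within groups. Cortical glutamatergic neuron markers had r = −0.488 with Dlx6 (rho = −0.518, permutation p = 0.0647 and 0.051, adjusted p = 0.139 and 0.129). For them r was −0.234 without TiO2 3 and paraquat 2, and −0.366 within groups. The part of either cell type in the fall of Dlx6 was not tested. The antisense Dlx6os1 averaged 531 ± 72.7 after paraquat and 532 ± 107 in control (adjusted p = 0.968).

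The other 7 members did not pass after paraquat, with adjusted p from 0.432 to 0.962. Their log2 fold changes with 95% intervals of the fit were 0.55 (−1.51 to 2.60) for Sp8, 0.52 (−0.37 to 1.42) for Dlx2, 0.35 (−0.22 to 0.92) for Dcx, 0.31 (−0.52 to 1.13) for Gsx2, 0.24 (−0.90 to 1.38) for Dlx1, 0.03 (−0.55 to 0.60) for Sox4 and −0.20 (−0.68 to 0.28) for Sox11. The interval of Sp8 holds a doubling and a halving, and those of Dlx1, Dlx2 and Gsx2 hold a doubling, so changes of that size are not excluded. Single libraries set the sign of several of these values. Without control 2 they were −0.32 for Sp8, 0.13 for Dlx2, 0.10 for Dcx, −0.05 for Gsx2, −0.18 for Dlx1, −0.20 for Sox4 and −0.44 for Sox11. Without paraquat 3 they were 1.12 for Sp8, 0.67 for Dlx1, 0.29 for Sox4 and 0.02 for Sox11. The median over the 9 members was 0.306, against −0.00668 over all genes. It is the value of Gsx2, which was −0.05 without control 2.

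After TiO2 none of the 9 members passed, where 6.4% of all genes did (4.3% higher and 2.1% lower). Groups did not overlap for 12.5% of all genes and for no member. At an unadjusted p under 0.05 there was 1 of 9, Dlx5, where 23.3% of all genes had one, and edgeR's quasi-likelihood test also called none. Dlx5 counts were 451, 392, 379 and 460.4 after TiO2, above the control mean of 309 in 4 of 4 libraries and overlapping only control 3. Its log2 fold change was 0.50 ± 0.18 (adjusted p = 0.113, and 0.0186 without control 3; range over the alternatives 0.0154 to 0.354). Sox11 was below the control mean of 449 in 4 of 4 TiO2 libraries (−0.40 ± 0.21, adjusted p = 0.267), and without control 2 its log2 fold change was −0.63 with an adjusted p of 0.0103 (range 0.0103 to 0.474). Dlx6 counts were 868, 937, 717 and 988 after TiO2 (−0.17 ± 0.09, adjusted p = 0.254). The log2 fold changes of the rest were −0.80 for Sp8, −0.68 for Gsx2, −0.46 for Dlx1, −0.21 for Sox4, −0.13 for Dlx2 and 0.39 for Dcx, with adjusted p from 0.279 to 0.877. Without control 2 the first 3 were −1.66, −1.03 and −0.88 (adjusted p = 0.127, 0.0693 and 0.216) and that of Dcx was 0.14. The median over the members was −0.211, against −0.0104 over all genes.

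After the mixture none of the 9 members passed, where 1.19% of all genes did (1.12% higher and 0.0707% lower), and none had an unadjusted p under 0.05, where 12.2% of all genes did, or was called by edgeR. Dlx6 counts were 892, 886, 877 and 856 after the mixture, a narrow range below all 4 controls (−0.16 ± 0.09, adjusted p = 0.496). Groups did not overlap for this gene alone of the 9, and for 7.75% of all genes. Dlx5 counts were 407, 305, 397 and 400 (0.33 ± 0.18, adjusted p = 0.493). The log2 fold changes of the other 7 members lay between −0.09 for Gsx2 and 0.36 for Dcx, with adjusted p from 0.614 to 0.988. Without control 2 they were −0.64 for Sp8, −0.44 for Gsx2, −0.34 for Dlx1, −0.29 for Sox4, −0.25 for Sox11, −0.12 for Dlx2 and 0.11 for Dcx. All 3 comparisons use the same 4 controls, so their values are not independent.

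**Figure D4:**
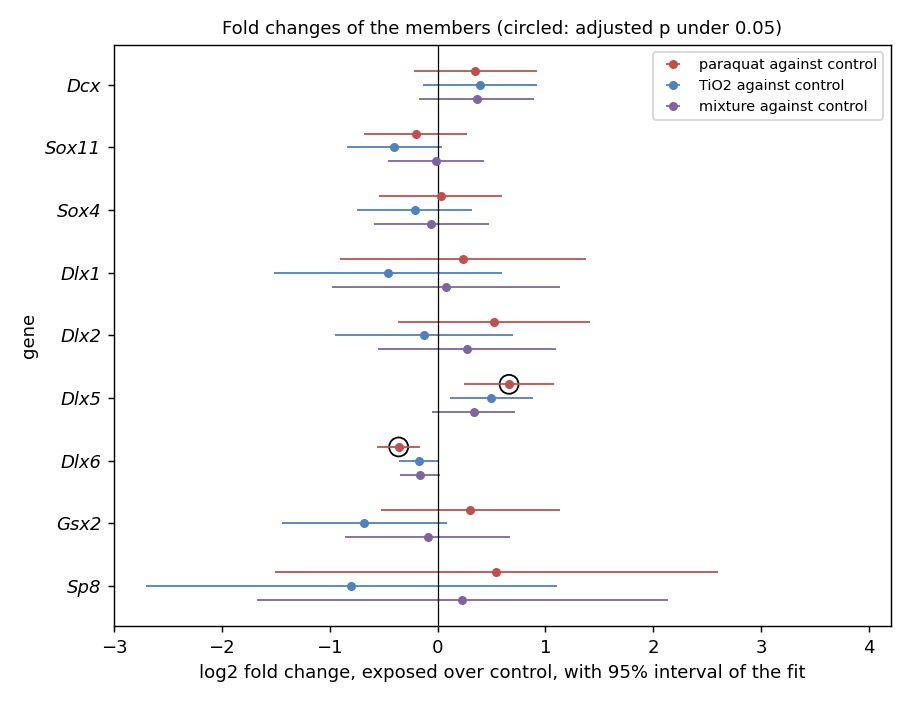
Log2 fold changes of the 9 members (rows) for paraquat, TiO2 and the mixture, each over control, with the 95% interval of the limma fit across 15 libraries. The circled points, Dlx5 (0.66) and Dlx6 (−0.36) after paraquat, are those with an adjusted p under 0.05, and the intervals of Sp8 and Dlx1 are the widest.

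Set against each other, the exposures gave no call in any member. For the mixture against paraquat adjusted p was 0.346 to 0.988, for the mixture against TiO2 0.494 to 0.978 and for paraquat against TiO2 0.702 to 0.995, comparisons in which limma called 0.00643%, 0.0% and 0.0% of all genes. At an unadjusted p under 0.05 these comparisons held 2235, 1768 and 997 genes, and edgeR called 1, 0 and 0. Before adjustment 1 member had p under 0.05 in the first (Dlx6, 0.20 ± 0.10) and 1 in the third (Gsx2, 0.98 ± 0.40, means 17.8 ± 4.05 after paraquat and 8.63 ± 2.58 after TiO2), and edgeR called none of the members in any of them. The interaction, the amount by which the log2 change after the mixture differs from the sum of the changes after paraquat and after TiO2, was −0.83 ± 0.27 for Dlx5 (adjusted p = 0.0553) and 0.37 ± 0.13 for Dlx6 (adjusted p = 0.0651). Neither passed, where 11.8% of all genes did, and they were the 2 of 9 members with an unadjusted p under 0.05, where 28.2% of all genes had one. Dlx5 passed by edgeR (adjusted p = 0.0275) and among genes with a mean of at least 20 (0.0494; range over the alternatives 0.0052 to 0.292), and Dlx6 with the GC correction (0.0403; range 0.028 to 0.153). Without control 2 the interaction of Sox11 was 0.82 (adjusted p = 0.0105), against 0.59 ± 0.30 (0.224) with it.

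The ratio of the genes of a pair needs no scaling between libraries, and it was examined after the values had been seen. Counts of Dlx5 were 65.0%, 58.6% and 61.4% of those of Dlx6 in paraquat libraries 1 to 3. They were 52.0%, 41.9%, 52.9% and 46.6% in TiO2 libraries 1 to 4, and 45.6%, 34.4%, 45.3% and 46.8% in mixture libraries 1 to 4. In control libraries 1 to 4 they were 27.9%, 21.1%, 40.1% and 35.4%. The paraquat and TiO2 libraries lay above all 4 controls, and 3 of the 4 mixture libraries did. How often ratios of other gene pairs separate in this way was not computed. Counts of single genes did not overlap with control for 21.2% of all genes after paraquat and 12.5% after TiO2.

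The mean log2 ratio of Dlx5 over Dlx6 was −0.699 ± 0.0743 after paraquat and −1.72 ± 0.407 in control (SD, n = 3 and 4; exact two-sided permutation p = 0.0571, the smallest possible here). It was −1.06 ± 0.157 after TiO2 (n = 4, exact permutation p = 0.0286, the smallest possible for 4 against 4) and −1.23 ± 0.209 after the mixture (n = 4, exact permutation p = 0.0857). Adjusted over the 9 ratio tests made, p was 0.128, 0.128 and 0.154, so none passed. Without control 2, the lowest library, the differences from control were 0.853, 0.497 and 0.324 on the log2 scale, against 1.03, 0.67 and 0.497 with it.

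The ratio of Dlx1 over Dlx2 was nearly constant in control, at 139%, 130%, 140% and 138%. It was 128%, 123% and 88.3% after paraquat, 100%, 112%, 122% and 101% after TiO2, and 133%, 126%, 89.0% and 138% after the mixture. All paraquat and TiO2 libraries lay below all 4 controls, and here too the share of other gene pairs that separate was not computed. The difference in the mean log2 ratio was −0.289 after paraquat (exact permutation p = 0.0571), −0.334 after TiO2 (0.0286) and −0.193 after the mixture (0.2). Adjusted over the ratio tests, p was 0.128, 0.128 and 0.294. Paraquat 3 and mixture 3, the libraries with the lowest ratio, were also low in Dlx1, and without them the differences were −0.119 and −0.051. Whether reads of Dlx1as were kept apart from those of Dlx1 is not known.

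**Figure D5:**
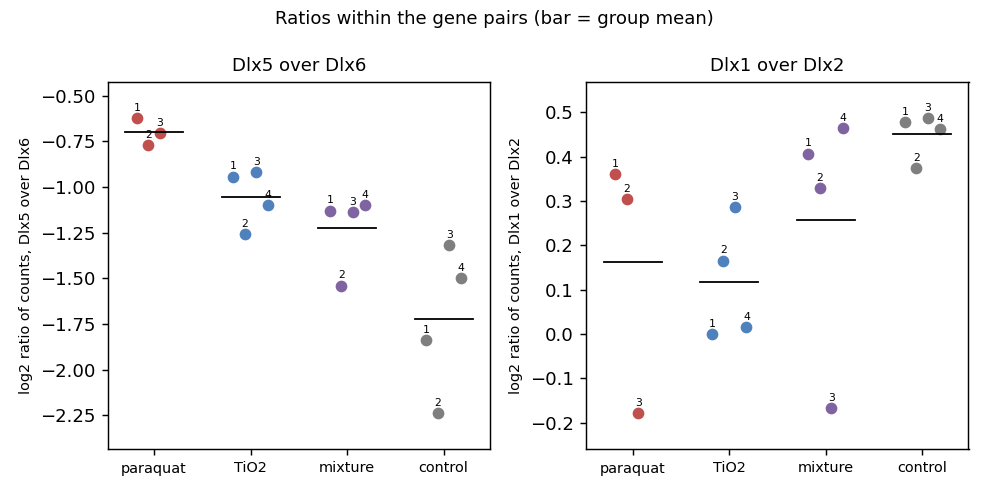
Log2 ratio of normalised counts within each gene pair (y axis) in each library, by group (x axis), numbered by library, with a bar at the group mean. Left, Dlx5 over Dlx6 is highest after paraquat (mean −0.699) and lowest in control (−1.72). Right, Dlx1 over Dlx2 spans 0.375 to 0.488 in control and reaches lower values in each exposed group.

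Other genes of the same lineage gave mixed directions. Of 33 further tested factors of the ganglionic eminence and striatal lineage, 3 rose and 6 fell after paraquat, where 6.34% of all genes rose and 4.06% fell, at a median log2 fold change of 0.083, against −0.00668 over all genes. The orphan receptor genes Nr2f2 (0.75 ± 0.12, means 220 ± 32.5 and 129.9 ± 8.15, adjusted p = 0.000434) and Nr2f1 (0.70 ± 0.15), which mark the caudal eminence, rose, as did Sox6 (0.49 ± 0.10), a factor of medial eminence interneurons. Rarb (−0.49 ± 0.08), Pbx3 (−0.47 ± 0.08) and Isl1 (−0.50 ± 0.12), which mark differentiating striatal neurons, fell, and so did Ebf1, Foxp2 and Bcl11b, with log2 fold changes of −0.32, −0.30 and −0.25. The calls of the last 3 ended without any 1 of 5, 6 and 6 of the 7 libraries (adjusted p up to 0.092, 0.127 and 0.118), those of Foxp2 and Bcl11b also with only the groups compared (0.0547 and 0.0797) and with a sex term (0.0508 and 0.0507), those of Ebf1 and Foxp2 with the GC correction (0.095 and 0.132), and those of the first 6 genes in no alternative run. Sp9, the close relative of Sp8, had a log2 fold change of −0.09 ± 0.12 (adjusted p = 0.696). After paraquat 5 of 6 oligodendrocyte markers rose (median log2 fold change 0.876) and 3 of 9 medium spiny neuron markers fell (median −0.201). Of the cortical glutamatergic neuron markers, 6 of 7 were in the table and none of the 6 was at 0 in any library. They summed to 1119 to 4886 after paraquat, 733.6 to 2191 after TiO2, 1923 to 3831 after the mixture and 393.7 to 1097 in control, so that the paraquat and mixture libraries lay above all controls. Their median log2 fold change was 1.38 after paraquat, where 1 of the 6 (Nrn1) was called, 0.694 after TiO2 and 1.8 after the mixture. The part of these cell types in the values of the lineage genes was not tested.

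After TiO2, Sox6 (0.40 ± 0.09) and Nr2f2 (0.41 ± 0.11) rose and Rarb (−0.38 ± 0.07) and Pbx3 (−0.28 ± 0.07) fell among the 33, where 6.4% of all genes were called, at a median of 0.0306. After the mixture Nr2f2 (0.57 ± 0.11) rose and Pbx3 (−0.31 ± 0.07) fell, where 1.19% of all genes were called, at a median of 0.047. The calls of Nr2f2 and Pbx3 after TiO2 ended without control 3, TiO2 2 or TiO2 3, and that of Nr2f2 also without control 1 and that of Pbx3 without control 4 (adjusted p up to 0.103 and 0.0826). That of Pbx3 after the mixture ended without any 1 library except control 2 (adjusted p up to 0.125).

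Of 22 further tested genes of immature neurons, 3 rose after paraquat and 19 were not called, at a median of 0.133. That is 3 of 22, where 10.4% of all genes were called, a share near the background. They were Tubb2b (0.29 ± 0.08), a tubulin of growing neurons, the RNA-binding protein gene Elavl4 (0.58 ± 0.17) and Crmp1 (0.31 ± 0.10), a cytoskeletal protein of axon growth. Each call ended without any 1 of 5 of the 7 libraries (adjusted p up to 0.0902, 0.141 and 0.247) and with only the groups compared (0.0559, 0.0505 and 0.0786), and that of Crmp1 with the GC correction (0.234). After TiO2, Crmp1 (0.52 ± 0.09, means 2888 ± 130.1 and 2022 ± 196, adjusted p = 0.00119), Tubb2b (0.38 ± 0.08) and Tubb3 (0.30 ± 0.08) rose. That is 3 of 22, where 6.4% of all genes were called, at a list median of 0.0721. The call of Tubb3 ended without any 1 of 5 of the 8 libraries (adjusted p up to 0.133) and with the GC correction (0.174). After the mixture Crmp1 rose (0.45 ± 0.09, adjusted p = 0.0118, and 0.0576 without mixture 1). It was 1 of 22, where 1.19% of all genes were called, at a list median of 0.171. Igfbpl1, also on this list and among the genes nearest to Dlx1 and Sox4, had log2 fold changes of 0.08 ± 0.51 after paraquat, −0.52 ± 0.47 after TiO2 and 0.02 ± 0.47 after the mixture (adjusted p = 0.942, 0.546 and 0.992).

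Among 15 genes of neural stem cells and dividing progenitors, Hes5 (0.57 ± 0.14), a Notch target, rose after paraquat. Fabp7 (−0.48 ± 0.12) and Nes (−0.42 ± 0.13), both of radial glia, fell. The list median was 0.0874, and over all genes 6.34% rose and 4.06% fell. Hes5 also rose after TiO2 (0.51 ± 0.13), at a list median of −0.0379, where 4.3% of all genes rose and 2.1% fell. After the mixture Hes5 had a log2 fold change of 0.16 ± 0.13 (adjusted p = 0.658), at a median of 0.029. The call of Hes5 ended with the GC correction (adjusted p = 0.16 after paraquat and 0.136 after TiO2) and, after TiO2, without TiO2 3 (0.0722). The call of Fabp7 ended without paraquat 1 (0.0699), and that of Nes without any 1 library except control 1 (up to 0.111) and with only the groups compared (0.0598). Of 5 genes of GABA synthesis and transport, Slc32a1, the vesicular GABA transporter gene, rose after paraquat (0.27 ± 0.08, adjusted p = 0.0443; 0.927 with the GC correction) and after TiO2 (0.26 ± 0.08, adjusted p = 0.0497; 0.56), at medians of 0.00419 and 0.0724. Slc32a1 was thus 1 of 5 in each comparison, where 10.4% and 6.4% of all genes were called. Its calls ended without any 1 of 5 of 7 and of 6 of 8 libraries (adjusted p up to 0.245 and 0.139). That after paraquat also ended with only the groups compared (0.0956) and with a sex term (0.0505). For the mixture its log2 fold change was 0.03 ± 0.08 and the median −0.0107.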

How the data were processed

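RNA sequencing of pup striatum was analysed from 1 table of normalised counts. Per the labels' protocols, a NucleoSpin kit served for extraction and a Lexogen SENSE kit for library preparation before Illumina sequencing. Named in the submitters' processing notes are the genome build mm10, DESeq2 2.1.8.3 and Bowtie2 2.3.2.2. Which read counter, annotation, gene filter and strand setting were used is not given in the sources used here. The values the authors deposited are a signal, that is, whole reads of each gene over a library's size factor. This was read from the values, which are whole multiples of a step of 0.6585 to 1.085, with 100% of values whole within 0.001. Recovery of reads is claimed for 11 libraries, since in the other 4 (paraquat 1, TiO2 3 and 4, mixture 1) the step lies too near 1 to tell.

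Groups came from the labels, which also give each library's number within its group. The members and lists were chosen with earlier results of these data known. The main test was limma 3.58.1 (R 4.3.3) on log2(value + 1), which understates changes of low genes, with trend and robust options. All 15 libraries entered a single fit of the 15556 genes that passed filterByExpr (edgeR 4.0.16). A gene was called when its p, adjusted by the Benjamini-Hochberg method across all genes tested, was under 0.05, and unless another test is named an adjusted p is from this fit. The term "rose" or "fell" is used for called genes. Sequences came from RefSeq tables of GRCm38.p6, positions and exon lengths from GENCODE M21, which held all 15569 symbols. List members named are the called ones, up to 6 per list and comparison by smallest p, with Sp9, Igfbpl1, Dlx6os1 and Nrn1 named after their values were seen. Some genes that this rule or the nearest-gene rule (3 genes per member by Pearson r) picks are not reported here. Relations across libraries were tested with 100000 permutations. The fit was tested on data simulated with the same setting of spread for every gene. Most members spread more widely than that, so the simulation does not show how the fit serves them. Within groups, any 2 libraries differed by more than counting noise (chi-square over degrees of freedom 3.01 to 25.1), so none was counted as a copy. Alternatives were other pseudocounts and filters, TMM scaling, edgeR's quasi-likelihood test on whole reads, a fit of only the groups compared, a replicate block, a GC correction, a sex term and leaving out each library. The edgeR test used all 15 libraries, among them the 4 for which recovery of reads is not claimed.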

Additional observations from a re-analysis of the deposited data

Results flagged for a closer look

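Within each group of 4 libraries, the highest and the lowest value of each member were compared with the rest, which made 27 groups. In 3 of them 1 library stood apart, where chance flags about 1 in 20 groups. Sox11 was 266.3 in control 2, while the other controls held 499.3 to 519.0, and Sox4 was 249.7 in control 2, while the others held 460.7 to 502.4. The values stand together in 1 library, which was also the lowest of all 15 for Dcx, Dlx1, Dlx2, Dlx5 and Sp8, and whose level of stem and dividing cell genes was the lowest as well. Dlx5 was 304.8 in mixture 2, while the other mixture libraries held 397.4 to 407.0.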

How the results depend on the processing

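In no alternative run did a called member change direction. Members called for paraquat numbered 1, against 2 in the fit reported, when only the groups compared were fitted, when the GC trend was removed and when a sex term was added, with Dlx6 left in each. For the interaction 1 member was called, against 0, among genes with a mean of at least 20, by edgeR and with the GC trend removed. The filter at a mean of 20 drops Gsx2. Over all genes, the mixture against paraquat gave 3 calls with TMM scaling, 8 with only the groups compared and 16 with the GC trend removed, against 1, the mixture against TiO2 gave 1 with the GC trend removed, against 0, and the interaction gave 1118 with the GC trend removed, against 1832. The cause was not tested.

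With each library left out in turn, calls over all genes ranged from 665 to 1754 for paraquat, 467 to 1397 for TiO2, 52 to 164 for the mixture, 0 to 3 for the mixture against paraquat, 0 to 14 for the mixture against TiO2, 0 to 11 for paraquat against TiO2 and 882 to 2313 for the interaction. Members called ranged from 0 to 2 for paraquat, 0 to 1 for TiO2 and 0 to 3 for the interaction, and stayed at 0 in the other comparisons.

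Same-numbered libraries of different groups did not deviate together: over 21 pairs the correlation ran from −0.186 to 0.271 (median −0.00198), and 8 pairs exceeded 0.1. With the number as a replicate block, 1 member was called for TiO2 (Dlx5, adjusted p = 0.0154) and 1 for the interaction (Dlx5, 0.0052), while the calls after paraquat of Bcl11b (0.0721), Foxp2 (0.0625), Nes (0.0606) and Slc32a1 (0.071) ended. No other call of a gene named in the results changed. Calls over all genes were then 290 for the mixture, against 185, 5 for the mixture against TiO2 and 3 for paraquat against TiO2, against 0 in both.

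Depth limits Gsx2, with 5 to 24 reads per library, and Sp8, whose lowest library holds 2 reads. The other members rest on 64 reads or more.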
